A study of Drosophila melanogaster with 3 samples.

Results

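The 10 genes described here are 9 heat shock and chaperone genes of Drosophila melanogaster (Hsp83, Hsp60A, Hsp27, Hsc70-5, Hsp67Bc, Hsp22, Hsp23, Hsp26 and Hsp68) and Hsf, the gene of the heat shock transcription factor. They were taken by name from the 13968 protein-coding genes annotated on the chromosome arms. A region was assigned to a gene when its summit, the base of highest signal, lay in the gene or within 2 kb of it. All positions are on the dm6 build, counted from 1.

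The data are from chromatin immunoprecipitation followed by sequencing (ChIP-seq), which recovers the DNA that a protein is bound to. The 3 biological replicates are whole embryos of both sexes, aged 0 to 16 hours, of 1 transgenic line that stably expresses the protein wek with green fluorescent protein (GFP) on its C terminus. The labels name no heat treatment and no second condition, and no line without the tag was analysed here. The description of each library speaks of an input control while its assay title and antibody name wek, and the libraries were taken as wek ChIP.

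Heat shock proteins are molecular chaperones that bind unfolded proteins and help them to fold or keep them from clumping. Under stress, Hsf binds heat shock elements, which are arrays of the unit GAA in alternating orientation, and switches on the inducible members of the family. Other members are expressed without stress, in development or in every cell. The protein wek has zinc fingers and a ZAD domain and is known from Toll signalling.

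A peak is a region of the authors' thresholded list, which holds 3582 regions called on the pooled replicates. Each replicate has a relaxed list of 30000 regions, and its 3582 regions of highest signal are called its top regions here. Signal is the authors' own value for a region, without a stated scale, so it is compared within 1 list only, and a rank of 1 is the highest signal. Read numbers are not part of the lists and the depth is unknown. Regions with q-values up to 0.01 numbered 8919 in replicate 1, 2216 in replicate 2 and 9834 in replicate 3. In whole embryos, strong binding in few cells and weak binding in many cannot be told apart.

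Wek peaks were found at 9 of the 10 genes, and Hsf was the exception. The same 9 genes had a peak summit within 500 bp of an annotated transcription start site. Of all coding genes, 29.3% had a peak in the gene or 2 kb of it and 15.4% had a summit within 500 bp of a start site. The genes were listed with such results known, so no test of their count against these shares was made. When a peak also had to be a top region of both remaining replicates, 5 genes were counted without replicate 1, 6 without replicate 2 and 7 without replicate 3. Under that rule 17.8%, 21.2% and 20.3% of coding genes were counted. Without replicate 1 and without replicate 2, Hsp23 was counted only through the peak upstream of Hsp27. The peaks numbered 10, since Hsp83, Hsp68 and Hsp23 each had a pair of peaks, 1 peak lay between Hsp67Bc and Hsp22, and the peak upstream of Hsp27 also lay within 2 kb of Hsp23. All 10 had the same deposited −log10 q-value of 3.85, while their signal ran from 1119 to 150.5.

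Top regions fell at 8 of the 10 genes in replicate 1 and at 7 in each of replicates 2 and 3, a mean of 7.33 ± 0.577 (SD, n = 3). By definition the top regions are equally many in each replicate. Counting regions with q-values up to 0.01 instead gave a mean of 8.33 ± 2.89 genes (SD, n = 3). The share of all coding genes under this rule was not counted, so nothing is read from that mean. Replicates 1 and 3 held 8919 and 9834 such regions, far more than their top regions. Replicate 2 held 2216 such regions. Its top region at Hsp67Bc and Hsp22 (rank 3205) had a −log10 q-value of 1.29 and missed that limit. The share of all coding genes with a top region was 29.5% in replicate 1, 27.3% in replicate 2 and 28.9% in replicate 3. Hsf had none in any replicate, Hsp26 had one in replicate 3 only, Hsp68 lacked one in replicate 2, and Hsp67Bc and Hsp22 lacked one in replicate 3. In replicate 3 Hsp23 was counted only through the region upstream of Hsp27 (rank 526).

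**Figure D1:**
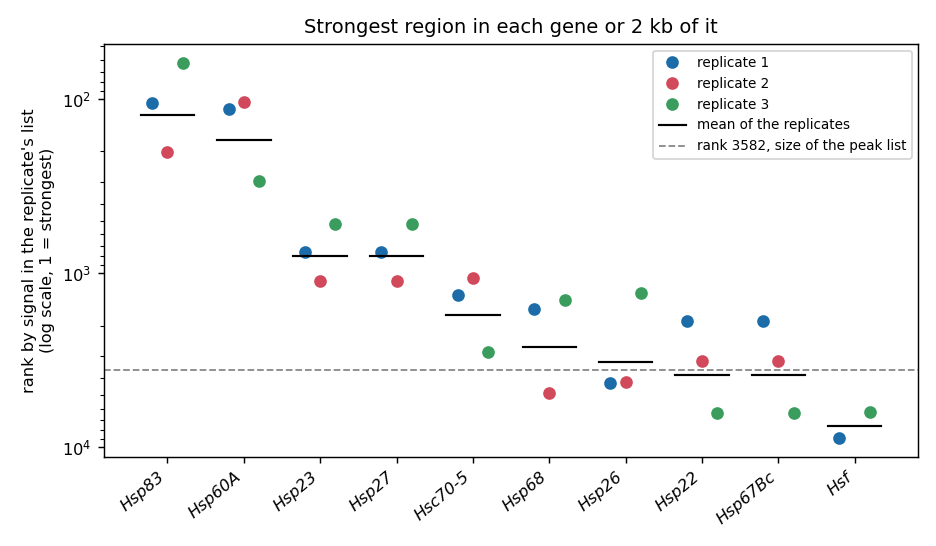
Rank of the strongest region in each gene or 2 kb of it, in the 30000 regions of each replicate (log axis, 1 at the top). Points are replicates, bars their mean, and the dashed line marks rank 3582. Hsp83 and Hsp60A lie between ranks 62 and 296 in all 3 replicates. Hsf lies at 8842 and 6251 in replicates 1 and 3, with no region in replicate 2. Hsp23 shares its points with Hsp27, and Hsp67Bc with Hsp22. In replicate 3 Hsp67Bc and Hsp22 are drawn at rank 6399, a region other than their shared peak. In replicate 2 Hsp68 is drawn at rank 4909, its farther peak.

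Hsp83, the cytosolic Hsp90 that stabilises kinases and receptors, had the strongest peak of the 10 (chr3L:3192899-3193260). Its signal of 1119 was rank 113 of the 3582 peaks, with 96.8% of the peaks below it. In the replicates the signal was 624, 223 and 283, at ranks 106, 203 and 62 (mean 124 ± 72.1, SD, n = 3). The gene has start sites at 3192969 and 3193216 on the plus strand. The summit at 3193124 lay between them, 92 bp upstream of the second and in the 5′ UTR of the transcript from the first. The summits of the 3 replicates fell within 10 bp of each other, the narrowest range of the 10 peaks. Near the summit stood 1 exact pair of inverted heat shock units, which starts 68 bp upstream of the second start site and 179 bp downstream of the first. Units with a mismatch were not searched, so any imperfect units beside this pair were not counted. The pair is shown, in capitals, because it is the only exact one in the gene's main peak (chr3L:3193137-3193166, plus strand).
Hsp83 pair: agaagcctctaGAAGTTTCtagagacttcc

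The second peak of Hsp83 lay in its intron (chr3L:3194040-3194409), 1009 bp downstream of the nearest start site. Its signal was 207, rank 1950 of the peaks. It ranked 3579 in replicate 1, 1535 in replicate 2 and 976 in replicate 3 (mean 2030 ± 1370, SD, n = 3), and so was among the top regions of each. In replicate 1 it passed that limit by only a few ranks. CG14965, a coding gene that starts 633 bp from the main summit, is within 2 kb of both peaks.

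Hsp60A, the chaperonin of the mitochondrial matrix, had a peak of nearly the same height (chrX:11108152-11108570, signal 1038, rank 123). The signal in replicates 1, 2 and 3 was 583, 317 and 145, at ranks 114, 104 and 296 (mean 171 ± 108, SD, n = 3). These ranks overlapped those of Hsp83, so the order of the first pair of genes was not separated by the replicates. Its summit lay 72 bp upstream of the first start site, and the replicate summits fell within 44 bp. Within 2 kb the only other coding gene was CG42249. The upstream part of the summit window, up to the base before the start site, is shown because it is the strongest of the 10 peaks whose summit lies outside any transcript (chrX:11108310-11108481, plus strand). The capitals mark GGTCACAC, the element of the promoter factor M1BP, whose nearest base is 60 bp downstream of the summit.
Hsp60A promoter: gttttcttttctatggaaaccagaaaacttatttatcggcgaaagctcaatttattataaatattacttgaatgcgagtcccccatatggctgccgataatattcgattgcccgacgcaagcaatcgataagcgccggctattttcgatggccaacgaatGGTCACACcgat

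Hsp68, a heat-inducible relative of Hsp70, had a pair of peaks, both upstream of its single start site. The nearer one (chr3R:24057253-24057622, summit 128 bp upstream) had a signal of 205 and rank 1987. Replicates 1 and 3 had it at ranks 1609 and 1424, whereas no region of replicate 2 overlapped it, although that list also holds 30000 regions. The farther one (chr3R:24057956-24058325, signal 164, rank 2934) lay 831 bp upstream of Hsp68 and 146 bp upstream of SMC1, a cohesin subunit gene. It ranked 2268, 4909 and 14069 in the replicates (mean 7082 ± 6193, SD, n = 3) and was a top region of replicate 1 alone. The nearer peak of Hsp68 held the longest run of exact alternating heat shock units, with starts 5 bp apart, among the 3582 peaks. The summit window is shown on the minus strand, the strand of the gene (chr3R:24057338-24057538). Capitals mark every pair of inverted units, and the longest run of capitals holds 5 units in a row.
Hsp68 promoter: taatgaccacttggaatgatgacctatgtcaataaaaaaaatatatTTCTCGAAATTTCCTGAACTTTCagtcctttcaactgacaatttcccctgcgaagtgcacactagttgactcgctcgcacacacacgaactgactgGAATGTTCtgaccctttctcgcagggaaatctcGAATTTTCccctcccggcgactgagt

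**Figure D2:**
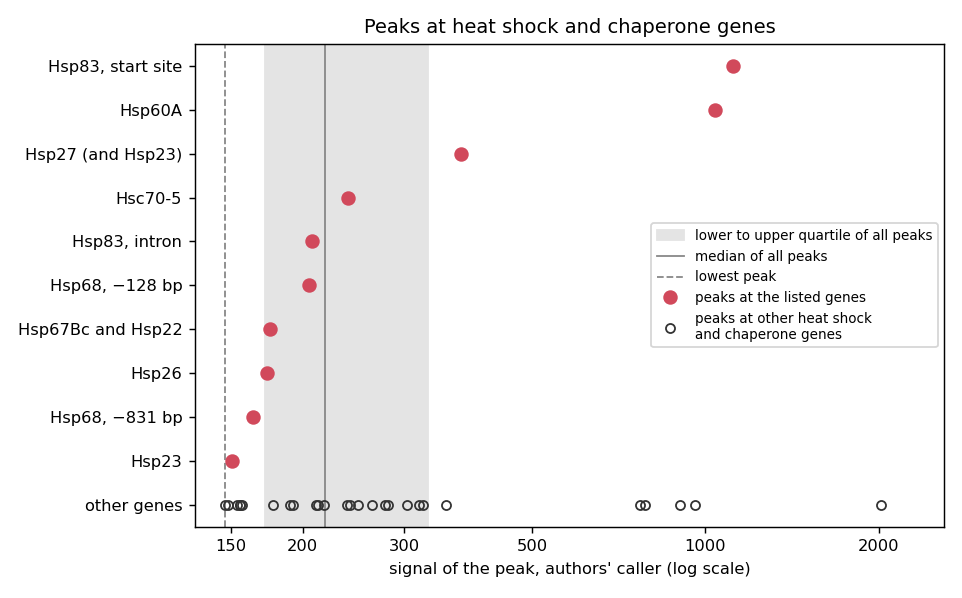
Signal of each peak at the listed genes (filled points, log axis), and of peaks at other heat shock and chaperone genes (open points, bottom). The band runs from the lower to the upper quartile of all 3582 peaks, 172.3 to 330.3, the solid line their median of 218 and the dashed line the lowest peak at 146.3. The peaks at the start of Hsp83, at Hsp60A and at Hsp27 lie above the band, and those at Hsp23 and 831 bp upstream of Hsp68 below it.

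The small heat shock proteins bind unfolded proteins without using ATP. Genes of 5 of them, Hsp67Bc, Hsp22, Hsp26, Hsp23 and Hsp27, lie within 14184 bp on 3L, from the end of Hsp67Bc to the end of Hsp27. In that stretch were 4 peaks and 17 pooled regions in all. Replicate 1 had 20 regions there with 3 top regions, replicate 2 had 16 with 6, and replicate 3 had 11 with 3. The region upstream of Hsp27 was the highest in all 3 replicates, and it was the only one to be a top region in every replicate.

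Hsp27 had the strongest of these peaks (chr3L:9383812-9384008, signal 376, rank 708), with its summit 156 bp upstream of the start site. Its signal in replicates 1, 2 and 3 was 194, 75.3 and 108, at ranks 761, 1108 and 526 (mean 798 ± 293, SD, n = 3). These ranks did not overlap those of Hsp60A above it. The peak was 197 bp wide against a median of 370 bp over all peaks. The replicate summits fell within 45 bp. None of the elements searched stood in this peak, including the heat shock pairs, and the summit window is shown as that of the strongest of the 10 without any (chr3L:9383807-9384007, plus strand).
Hsp27 promoter: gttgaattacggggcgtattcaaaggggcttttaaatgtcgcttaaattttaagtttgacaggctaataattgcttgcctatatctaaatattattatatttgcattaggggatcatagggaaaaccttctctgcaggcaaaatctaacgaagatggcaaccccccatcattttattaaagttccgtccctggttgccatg

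A second region in the Hsp27 coding sequence was below the peak list in the pooled call (signal 135.5, rank 4044). It was a top region of replicate 2, at rank 2081, and ranked 11124 and 11371 in replicates 1 and 3. The last peak in the list has a signal of 146.3.

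Hsp23 had the weakest peak of its own (chr3L:9381549-9381918, signal 150.5, rank 3407), 148 bp upstream of its start site and just inside the list. It ranked 2401 in replicate 1, 3526 in replicate 2 and 14778 in replicate 3 (mean 6902 ± 6844, SD, n = 3). The replicate summits were spread over 193 bp, the widest range of the 10 peaks. Its other peak was that of Hsp27, 1142 bp from the end of Hsp23. The window at the weak peak is shown because heat shock pairs stood on both sides of its summit, 13 bp upstream and 10 bp downstream of it (chr3L:9381634-9381834, plus strand). Capitals mark these pairs and a GAGAG match on the other strand, an element bound by GAGA factor.
Hsp23 promoter: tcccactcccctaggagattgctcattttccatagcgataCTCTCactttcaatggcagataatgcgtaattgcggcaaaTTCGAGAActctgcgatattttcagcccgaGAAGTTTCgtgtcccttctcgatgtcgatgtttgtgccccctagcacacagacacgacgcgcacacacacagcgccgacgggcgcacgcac

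Hsp26 had a peak at its start sites (chr3L:9377199-9377568, signal 174, rank 2647). The ranks were 4253, 4227 and 1298 in replicates 1, 2 and 3 (mean 3259 ± 1699, SD, n = 3), so it was a top region of replicate 3 alone. The gene is on the minus strand with start sites at 9377427 and 9377375, and the summit at 9377384 lay 9 bp upstream of the second. A weaker pooled region 159 bp upstream of the gene just missed the list (signal 145.8, rank 3607). In replicate 2 the region matched to the peak had its summit closer to that weaker region, 125 bp upstream of the gene. The replicate summits matched to the peak were spread over 177 bp. Within 2 kb of the peak's own summit also lie Hsp67Ba and CG4461, both small heat shock genes. A heat shock pair began 49 bp upstream of the second start site and 3 bp downstream of the first, and GAGAG matches stood farther upstream. Both are shown on the minus strand with the matches in capitals, because this peak alone of the 10 held several GAGAG matches beside a pair. The pair is at chr3L:9377406-9377435. The stretch upstream of the transcripts is at chr3L:9377428-9377484, and its last bases are the first of the other line.
Hsp26 pair: tttccggactcTTCTAGAAaagctccagcg
Hsp26 upstream: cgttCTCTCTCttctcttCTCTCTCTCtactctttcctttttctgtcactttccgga

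Hsp67Bc and Hsp22 shared 1 peak (chr3L:9372616-9372985, signal 176, rank 2603). The genes start head to head, and the summit lay 304 bp upstream of Hsp67Bc and 130 bp upstream of Hsp22. It also lay 79 bp inside CG4456, whose older name is Hsp67Bb and which overlaps Hsp22, so the peak was within 500 bp of a start site of 3 genes. Fdx1 was also within 2 kb. The ranks in replicates 1, 2 and 3 were 1886, 3205 and 7288 (mean 4126 ± 2816, SD, n = 3). Replicate 3 had a slightly stronger region inside CG4456 and Hsp22, at rank 6399.

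**Figure D3:**
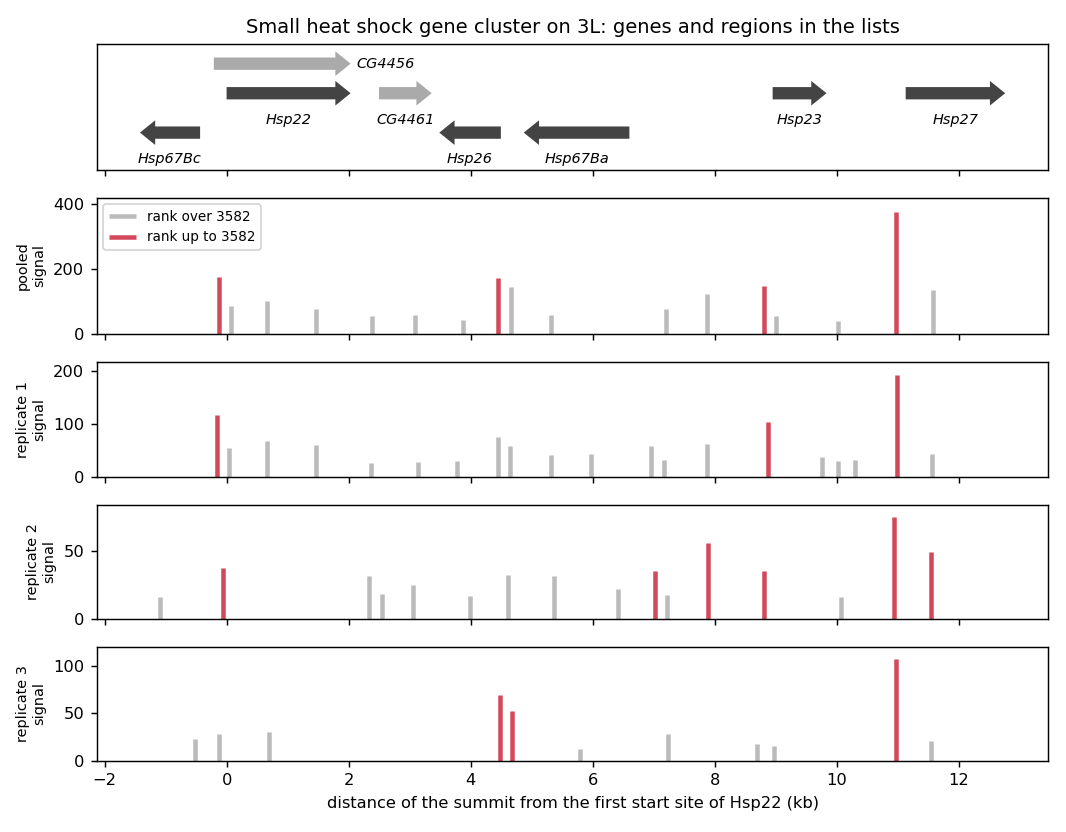
Genes of the small heat shock cluster on 3L (arrows, dark for genes named Hsp) and the signal of every region in the pooled and the 3 replicate lists, against the distance of its summit from the first start site of Hsp22 in kb. Each panel has its own signal axis. Red bars are regions ranked up to 3582. The bar upstream of Hsp27 is the highest in each panel, and the bars at Hsp26 and Hsp22 are red in some replicates only.

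Hsc70-5, the mitochondrial Hsp70 that is expressed without stress, had a peak at its start (chr2R:14255996-14256365, signal 239, rank 1550). In replicates 1, 2 and 3 the signal was 142, 77.1 and 46.7, at ranks 1344, 1069 and 2836 (mean 1750 ± 951, SD, n = 3). All 3 were top regions, and their range overlapped those of Hsp27 and of the nearer Hsp68 peak. The summit lay 11 bp inside the gene, in the 5′ UTR, and 312 bp upstream of the head-to-head neighbour CG8531. The replicate summits were spread over 101 bp.

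Hsf had no peak in the gene (chr2R:18130303-18134634) or within 2 kb of it. Its strongest pooled region lay at the start site (23 bp downstream) with a signal of 64.1, rank 13231 of 30000 and a −log10 q-value of 0.867. The strongest region ranked 8842 in replicate 1, inside the gene 515 bp from the start, and 6251 in replicate 3, at 961 bp. The −log10 q-values of these regions in replicates 1 and 3 were 2.02 and 3.40, both within the q-value limit of 0.01. Replicate 2 had no region in the gene or 2 kb of it. The nearest peak outside the window was 3912 bp from the gene, with a signal of 215. A pooled region of any rank in the gene or 2 kb of it was found for all 10 genes and for 73.9% of coding genes.

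Of the 10 peaks, 5 were overlapped by a top region of all 3 replicates: both at Hsp83, and those at Hsp60A, Hsp27 and Hsc70-5. Over all 3582 peaks this share was 48.8%. Ordered by mean rank, every peak after that of Hsp27 overlapped the next in its ranks. The ranks of Hsp27 overlapped those of Hsc70-5 and the Hsp83 intron, and the nearer Hsp68 peak stands between them in this order only because its missing rank in replicate 2 was left out of its mean. Each of the 10 peaks has a coding gene within 2 kb by the rule that assigned it, and 9 of them, all but that at Hsp23, had 2 or more. Of all peaks with at least 1 coding gene within 2 kb, 54.3% had 2 or more, and nothing is read from the contrast. The nearest peak left out by the distance rule lay 2050 bp from Hsp83, with a signal of 372. The farthest summit assigned was that of Hsp27 to Hsp23, at 1142 bp.

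**Figure D4:**
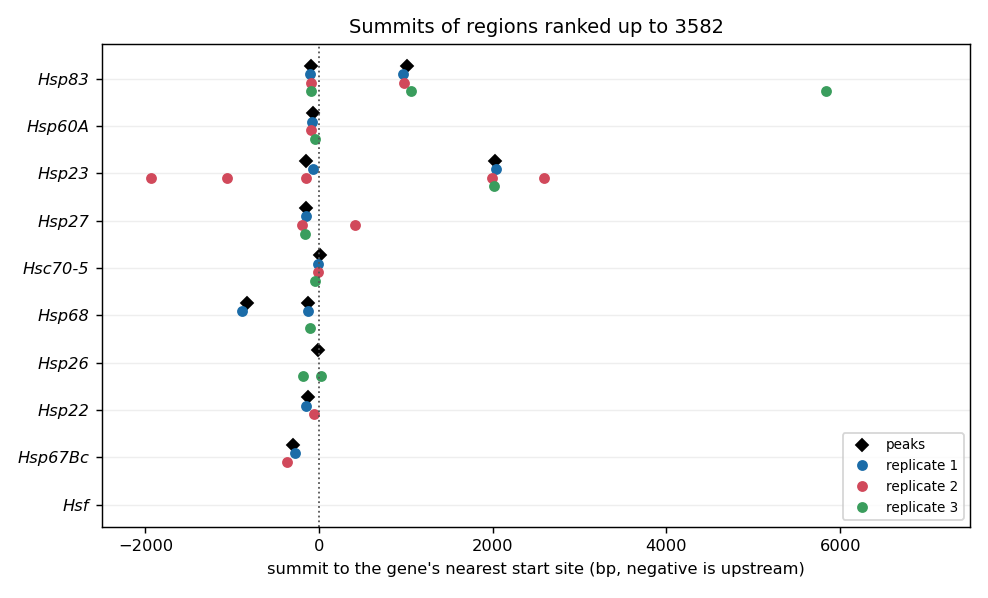
Position of the summits of regions ranked up to 3582 relative to the nearest start site of each listed gene (bp, negative is upstream). Diamonds are peaks and circles are regions of replicates 1, 2 and 3. At Hsp83, Hsp60A, Hsp27 and Hsc70-5 the circles of all 3 replicates lie under the diamond nearest the start site, and Hsf has no symbol.

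Peaks were also sought at other heat shock and chaperone genes. Of 67 such genes, 24 (35.8%) had a peak in the gene or 2 kb of it, against 29.3% of coding genes. Within 500 bp of a start site it was 11 (16.4%), against 15.4%. Hsp67Ba, CG4461 and CG4456 were counted only through the peaks of Hsp26 and of Hsp67Bc and Hsp22 described above. No test of these shares was made. A peak was then required to be a top region of both remaining replicates. This counted 12 of these genes without replicate 1, 16 without replicate 2 and 15 without replicate 3. The same rule counted 17.8%, 21.2% and 20.3% of coding genes.

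The CCT chaperonin folds actin and tubulin, and of its 8 subunits CCT3, CCT5, CCT6 and CCT7 had a peak. The peak near CCT6 (signal 2017, mean rank 28.3 ± 3.79, SD, n = 3) was stronger than any at the 10 listed genes, but its summit lay past the gene, 2465 bp from the nearest CCT6 start site, and also near Mvd. That at CCT5 (signal 318, mean rank 761 ± 153, SD, n = 3) was 26 bp upstream of its start site. Of 13 J-domain proteins, which hand clients to Hsp70, 4 had a peak: mrj (signals 786 and 211), CG7130 (770, with RpLP0 also near), DnaJ-1 (193) and Droj2 (147). The DnaJ-1 peak ranked 1276, 12033 and 3472 in the replicates. The 2 other Hsp90 genes, Gp93 (241) and Trap1 (157), had peaks 1917 and 505 bp outside the gene. Both had another coding gene nearby.

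Of 12 Hsp70 and Hsc70 genes, Hsc70-3 (signal 304) and Grp170 (212) had a peak, both outside the 500 bp around the start sites. The 6 nearly identical copies of heat-inducible Hsp70 (Hsp70Aa, Hsp70Ab, Hsp70Ba, Hsp70Bb, Hsp70Bbb and Hsp70Bc) had no pooled region of any rank within 2 kb. How reads that match several copies were treated is not given in the sources used here, so these genes are uncertain and no absence of binding is shown. Among Hsp60 and Hsp10 genes, CG11267 alone of 5 had peaks (signals 324 and 264), the stronger 118 bp upstream of its start site. Of 6 prefoldin genes, Pfdn6 (signals 960 and 156) and Pfdn1 (903 and 278) had peaks, none within 500 bp of a start site and all with other coding genes within 2 kb. At each of these genes the pair of peaks overlapped and matched the same regions of replicates 1 and 2. Among 12 cochaperones, Cdc37 (281), Stip1 (239), Sgt (190.4) and stv (148) had peaks, and only that of Sgt lay within 500 bp of a start site. The Cdc37 summit lay 1036 bp outside the gene. No region of replicate 2 overlapped the peaks of Cdc37 and Grp170. A peak 77 bp inside CG14207 (signal 154) was the only further one at a small heat shock gene. The noncoding heat shock gene lncRNA:Hsromega held 3 peaks (signals 354, 249.8 and 218), 2 of them within 500 bp of a start site. These 2 overlapped each other and matched the same region in each replicate.

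Heat shock pairs were present in part of the peaks at the listed genes. Units with a mismatch were not counted. A pair was searched on both strands as an exact GAANNTTC or TTCNNGAA within 100 bp of the summit. It was found at 5 of the 10 peaks, both at Hsp83, the nearer one at Hsp68, and those at Hsp26 and Hsp23. Of all peaks 9.74% held one, and of the 1832 peaks with a summit within 500 bp of a coding start site 11.1%. In a run of 3 alternating units 1 pair of each form overlaps. Such a run stood at the Hsp68 peak and at 0.223% of all peaks. GAGAG was found at 3 of the 10 (Hsp67Bc and Hsp22, Hsp26, Hsp23) and at 29.3% of all peaks. GGTCACAC was found at Hsp60A, at 3.77% of all peaks and at 6.93% of those near a start site. The DREF site TATCGATA stood at none of the 10, at 3.88% of all peaks and at 7.10% of those near a start site. The word GAATACCC also stood at none of the 10, and these shares were 2.90% and 4.59%. These matches are letters in a window and were not tested as binding sites of any factor.

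The peaks most like each promoter peak were sought by the mean absolute difference of log10 rank over the 3 replicates. Closest to Hsp83 were the peaks at CG9837 (ranks 112, 230 and 72; difference 0.0477) and Alg3 (0.0595). Closest to Hsp60A were those at ArfGAP3 (0.0342) and pns (0.0636), and closest to Hsp27 those nearest to bmm (0.0225) and CG7484 (0.0229). For Hsc70-5 they were nearest to jing (0.00929) and wrd (0.0137). Efa6 (0.0249) and CG11779 (0.0315) were closest for the shared peak of Hsp67Bc and Hsp22. CG33111 (0.0247) and Meltrin (0.0375) were closest for Hsp26, and strat (0.0107) and Mrtf (0.0163) for Hsp23. The nearer Hsp68 peak was left out for want of a rank in replicate 2. Each likeness rests on 3 ranks.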

How the data were processed

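ChIP-seq regions of 3 biological replicates were used as deposited on dm6. Per the lists deposited with the libraries, the authors called relaxed regions on each library and on the pooled libraries against 1 control, and thresholded them by the irreproducible discovery rate. The sources used here name neither the caller nor its settings or threshold. Signal and the −log10 q-value of each region are the authors' values; the deposited summit offset was added to the region start. Every thresholded region was found in the pooled list, and together they were its 3582 strongest.

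Genes came from Ensembl release 115 (BDGP6.54) and sequence from the RefSeq copy of dm6, read with Python 3.11.15 and pandas 2.3.3. A peak matched a replicate region that it overlapped by at least 1 bp, the one of highest signal where several did. Distance assignment was tested on simulated data. Genes were named by fixed rules: the 10 genes, other chaperone genes with a peak, neighbours of their peaks, and the 2 peaks most alike in rank. The genes named for runs of heat shock units, under the other observations, fall outside these rules and were picked after the data were seen. Of 78 list entries 77 matched the annotation, 69 by symbol. l(2)tid was ambiguous. The members and lists were chosen with earlier results of these data known, so counts are described beside those of all coding genes, without tests. Sequences are not printed for 2R or for transcribed 5′ ends beyond 30 bases.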

Additional observations from a re-analysis of the deposited data

How the results depend on the processing

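The order of strong and weak genes rests on 3 replicates of unknown depth. Of the alternative values of the main results, 33 stayed close to the reported one and 14 did not. Alternative values for single genes and single elements are not in this count. Close means within 1.5 times for a count. For the median rank it means within 188, the SD of the medians within each replicate (1476.5, 1108 and 1361). That SD does not measure the spread of the reported value, which is a median of mean ranks. With the 1791 stronger peaks only, 5 of the listed genes had a peak, Hsp23 only through that of Hsp27. These were 4 distinct peaks, and 4 genes had one within 500 bp of a start site. Of coding genes, 17.7% had a peak and 8.48% had one within 500 bp of a start site. Of the other chaperone genes, 12 had a peak. When a peak had to be a top region of both remaining replicates, leaving out each replicate in turn gave 5 to 7 listed genes, 5 to 7 distinct peaks, 4 to 7 genes within 500 bp of a start site and 12 to 16 other genes. Of coding genes it gave 17.8% to 21.2%, and 8% to 10.7% within 500 bp of a start site. The lowest values were without replicate 1, and 15 other genes were counted without replicate 3. The median over genes of the mean rank was 2198.5. It was 1803 to 2357.5 without 1 replicate, and 3545 for regions within 500 bp of a start site, where the mean ranks of Hsp23, Hsp68 and Hsf became 6902, 9227 and 18705 and Hsf had a region in replicate 3 only. Within 5 kb, 10 of 10 genes had a peak, as did 40.7% of coding genes. Heat shock pairs stood at 4 of the 10 peaks within 50 bp (4.38% of all peaks) and at 5 over the whole peak (14.4%), a window added after the data were seen. Within 50 bp, GAGAG was found at 1 peak (15.7% of all peaks) and GGTCACAC at 0 (2.01%). No paired analysis was possible because the labels give 1 group.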

Other observations

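Only heat shock units without a mismatch were used here. Runs of 3 or more such units in alternating orientation, with unit starts 5 bp apart, were counted over whole peaks after the data were seen. They stood in 18 of the 3582 peaks (0.503%), a region near Grx1 being listed with 2 summits, and the nearer Hsp68 peak, with 5 units, was the only one with more than 3. The others include Ubi-p63E, a polyubiquitin gene (signal 231, summit 46 bp upstream of its start site), and Cyp1, a peptidyl-prolyl isomerase that helps proteins fold (signal 213, 21 bp downstream). The strongest were at Cpsf6 (signal 1688), Stoml2 (1417), Grx1 (1006, the stronger summit) and Rb97D (886). Each of these had its summit within 100 bp upstream of its nearest coding start site. The next in signal, nearest to CG7694 (289), had its summit 831 bp downstream of the start site.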
